A study of Mus musculus with 16 samples.

Results

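The 9 genes described here encode matrix proteases and their inhibitors in mouse kidney: the matrix metalloproteinases Mmp2 and Mmp14, the ADAMTS metalloproteinases Adamts1 and Adamts5, the tissue inhibitors of metalloproteinases Timp1, Timp2 and Timp3, the plasminogen activator Plau and the serine protease inhibitor Serpine2. They were taken by symbol as a named family, with earlier results of these data known, and are 9 of the 31053 features in the deposited files. Their level was taken from unique molecular identifiers (UMIs), tags that mark single captured RNA molecules: the UMIs of a gene were summed over the cells of 1 class in 1 library and scaled by those of all genes to counts per 1000000 (CPM).

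Single-cell RNA sequencing was performed on kidneys of 16 mice, 1 library per mouse, on the BTBR background. Control mice were BTBR +/+ and DN (diabetic nephropathy) mice were BTBR ob/ob, which lack functional leptin and become obese and diabetic. Each genotype was sampled in females and males at 6 and 12 weeks of age, with 2 libraries in each of the 8 groups. Mice of both genotypes also carried the tm4 reporter at Gt(ROSA)26Sor, which makes tdTomato and, after Cre, EGFP, and a Cre transgene active in podocytes, so neither genotype lacked these alleles. Both kidneys of a mouse were pooled without the papilla, part of the proximal tubules was removed on a Percoll gradient, and the remaining tissue was digested with collagenase and then a cold-active protease.

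Matrix metalloproteinases and ADAMTS proteases are zinc enzymes that cut collagens, proteoglycans and other proteins around cells. Tissue inhibitors of metalloproteinases bind the active site of these enzymes, and the balance between the 2 sides is known to shape the mesangial matrix, which accumulates in diabetic glomeruli. The plasminogen system is a parallel route in which urokinase turns plasminogen into plasmin, and serpins such as protease nexin-1, the product of Serpine2, block urokinase, plasmin and thrombin.

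The labels describe the samples as cells of glomeruli, but tubular cells were common. After removal of doublets and damaged cells, 84778 cells were kept, and marker genes gave a class to 62884 of them, in 16 classes. The glomerular classes were mesangial-like cells (3367 cells, 3.97% of those kept), glomerular endothelial-like cells (glomerular EC-like, 6098 cells, 7.19%) and podocyte-like cells (1172 cells, 1.38%), while proximal tubule-like (PT-like) cells made up 19.5%. The class names rest on markers alone, and the 9 genes took part neither in the clustering nor in the marker lists. A further 21894 cells stayed unnamed, with a median of 845 UMIs. The 16 libraries fell into batches by the cell barcodes they shared: pairs within a batch shared 0.121 to 2.05 barcodes per 1000000 possible pairs and pairs across batches 0 to 0.0680. Replicate 1 of the 4 female groups formed a shallow batch with 10510855 to 21728793 UMIs per library, and the other 12 libraries formed a deep batch with 83410397 to 125551519. Each batch held both genotypes, whereas males were in the deep batch only. Male control replicate 2 at 6 weeks stood apart with a median of 698 UMIs per barcode. The leptin transcript had 0 to 2 UMIs per library among the cells kept, so it could not check the genotype labels.

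Positions are those of the GRCm38 build. Mmp2 is at chr8:92827291-92853420, Mmp14 at chr14:54431612-54445364 and Plau at chr14:20836660-20843385. Adamts1 (chr16:85793827-85803113) and Adamts5 (chr16:85856173-85901828) lie close together on the reverse strand, and Serpine2 is at chr1:79794197-79861180. Timp2 (chr11:118301069-118355740) holds the gene Cep295nl on its own strand. Timp1 (chrX:20870166-20874735) and Timp3 (chr10:86300372-86349506) lie inside the genes Syn1 and Syn3, which run on the opposite strand. The sources used here do not say if reads were assigned by strand, so reads of each of these 2 genes and its partner may not be separable.

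Promoter sequence from RefSeq (GRCm38.p6) covered 6 of the 9 genes. Each window was the 250 bases before the transcription start. Printed here, for 4 genes whose level is compared between genotypes below, is the part of the window that precedes any annotated exon. Capitals mark GGGCGG, the core of a GC box, on either strand, and the TATA motif TATAAA.
Mmp14, chr14:54431348-54431597, forward strand: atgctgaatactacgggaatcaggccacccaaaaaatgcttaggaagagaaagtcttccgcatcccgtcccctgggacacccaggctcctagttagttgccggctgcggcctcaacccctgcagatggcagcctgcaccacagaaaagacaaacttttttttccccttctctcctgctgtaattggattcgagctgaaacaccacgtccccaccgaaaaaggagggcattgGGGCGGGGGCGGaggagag
Timp3, chr10:86300162-86300371, forward strand: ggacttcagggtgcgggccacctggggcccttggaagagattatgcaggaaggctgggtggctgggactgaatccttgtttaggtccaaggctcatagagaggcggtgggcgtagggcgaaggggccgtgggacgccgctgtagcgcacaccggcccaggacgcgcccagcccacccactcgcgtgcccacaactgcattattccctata
Adamts1, chr16:85803114-85803363, reverse strand: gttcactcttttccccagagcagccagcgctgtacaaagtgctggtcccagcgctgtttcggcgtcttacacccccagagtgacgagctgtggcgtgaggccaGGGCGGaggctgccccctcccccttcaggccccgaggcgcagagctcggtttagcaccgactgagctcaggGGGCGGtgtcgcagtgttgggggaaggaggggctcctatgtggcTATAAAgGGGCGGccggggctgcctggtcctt
Serpine2, chr1:79858697-79858915, reverse strand, at the start of a transcript inside the gene: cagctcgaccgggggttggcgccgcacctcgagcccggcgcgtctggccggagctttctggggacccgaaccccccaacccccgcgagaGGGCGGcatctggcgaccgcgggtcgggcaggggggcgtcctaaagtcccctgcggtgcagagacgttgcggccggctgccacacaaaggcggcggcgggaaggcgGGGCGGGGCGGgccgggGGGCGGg
In the whole window GGGCGG was found 6 times for Serpine2, 3 times for Adamts1, 2 times for Mmp14 and 1 time each for Timp1, Timp2 and Timp3, and 32.7% of 32851 mouse promoters held it. For Serpine2 some of these matches, and for Timp3 its only one, lie beyond the printed stretch. Adamts1 also held TATAAA, as did 12.4% of promoters. The other motifs searched were the CArG box bound by serum response factor (1.47% of promoters), the AP-1 motif TGANTCA (6.75%) and the TEAD motif GGAATG (12.6%), on both strands. None of the 6 windows held the first 2 of these, and GGAATG was present in that of Timp1 alone.

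The levels of the 9 genes by class are a description, since the classes were made from these cells. Mesangial-like cells had the highest mean level of 6 genes. Mmp2, the gelatinase that cuts collagen IV, was at 229 ± 74.4 CPM there (SD, n = 16 libraries), ranging from 100.4 to 341 CPM, against 67.2 ± 27.6 CPM in arterial EC-like cells. Mesangial-like cells held the higher level in 16 of 16 libraries, although the ranges of the 2 classes overlapped. Mmp14, the membrane protease that activates pro-MMP2 on the cell surface, was at 142 ± 30.3 CPM in mesangial-like cells and 33.5 ± 7.40 CPM in smooth muscle and renin-like cells, with no overlap. Adamts5, an aggrecan- and versican-cutting protease, was at 3653 ± 718 CPM in mesangial-like cells, 20.7 times the 176 ± 64.5 CPM of smooth muscle and renin-like cells, the next class. Serpine2 was at 4879 ± 1733 CPM in mesangial-like cells and 571 ± 175 CPM in smooth muscle and renin-like cells. For both genes the lowest mesangial-like library lay above the highest library of the next class. A UMI of Serpine2 was present in 99.9% of mesangial-like cells.

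Adamts1, a related versican-cutting protease that also binds VEGF, had flatter levels: 377 ± 105 CPM in mesangial-like cells, 230 ± 112 CPM in glomerular EC-like cells and 135 ± 89.8 CPM in peritubular and venous EC-like cells (n = 12). The 2 endothelial classes differed by less than their spread. Timp2, the inhibitor that also helps MMP14 to activate pro-MMP2, was at 676 ± 83.2 CPM in mesangial-like cells, 445 ± 72.1 CPM in podocyte-like cells (n = 15) and 280 ± 60.7 CPM in cells like the descending limb of the loop of Henle (dLOH, n = 14). Mmp2, Mmp14 and Timp2 therefore each had their highest mean in the same class.

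Timp3, the inhibitor that stays bound to matrix, had another order. Its level was 5485 ± 1606 CPM in arterial EC-like cells, 3467 ± 1046 in glomerular EC-like cells, 2585 ± 716 in peritubular and venous EC-like cells and 1977 ± 607 in podocyte-like cells. PT-like (1417 ± 283), dLOH-like (1251 ± 437) and mesangial-like cells (1094 ± 331) came next. From glomerular EC-like to mesangial-like cells, neighbours in that order differed by less than the larger SD. The gene most like it across the 16 classes was Syn3, whose locus contains Timp3 on the other strand (Pearson r = 0.981 of log2(CPM + 1) class means, from 12802 genes).

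Plau, the urokinase-type plasminogen activator, was highest in dLOH-like cells at 493.4 ± 295 CPM, followed by cells like the ascending limb (aLOH) at 168 ± 94.1 CPM and mesangial-like cells at 108 ± 72.1 CPM. The last 2 differed by less than their spread. Timp1, a soluble inhibitor, was near the detection limit in the 16 named classes. It reached 7.02 ± 4.46 CPM in arterial EC-like cells, where 135 UMIs were counted in 121 of 2412 cells, and 5 UMIs were counted in 3367 mesangial-like cells. In principal cell-like (PC-like) cells 0 of 6776 cells had a Timp1 UMI, which allows a share of cells with a UMI of up to 0.0443% for counting error only and does not limit the share of cells that express the gene.

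**Figure D1:**
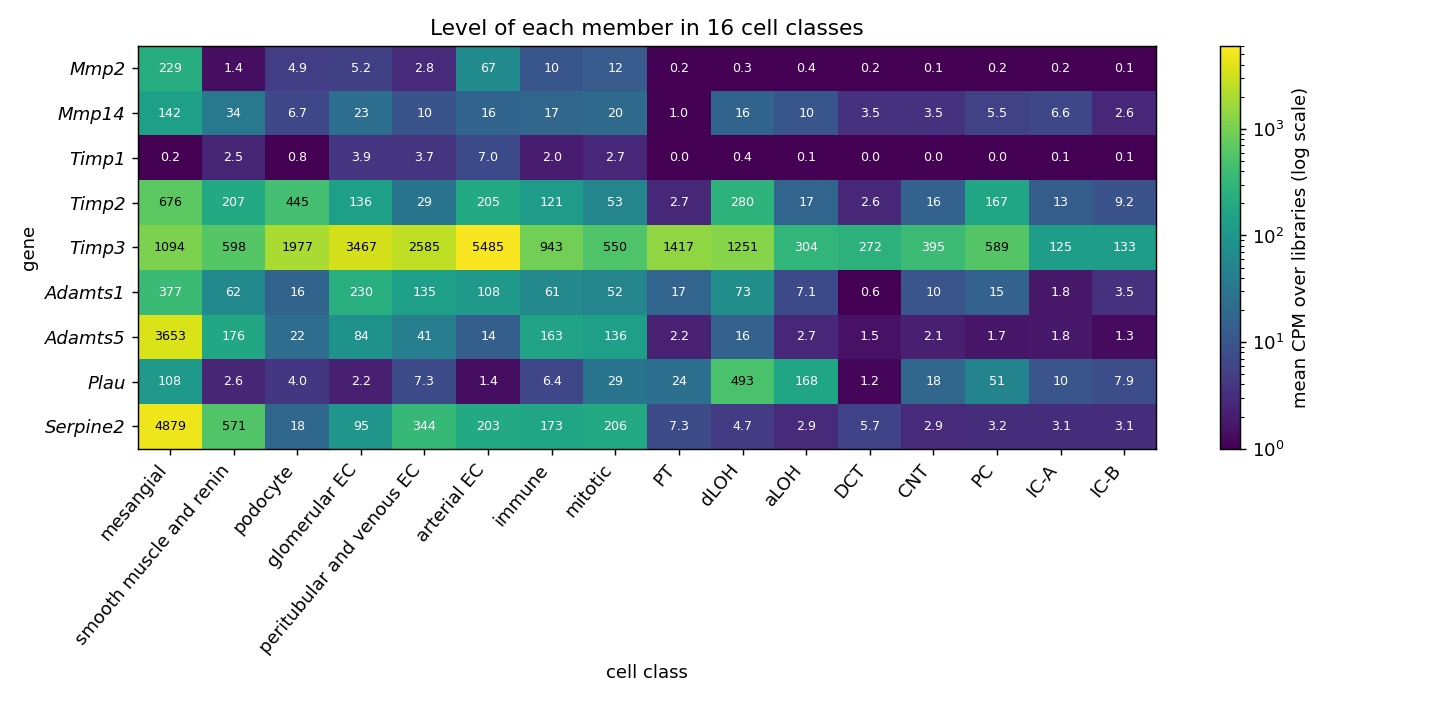
Mean level of each gene in each of 16 cell classes, in CPM on a log colour scale, averaged over the 12 to 16 libraries with at least 10 cells of the class (13 for mitotic cells, levels below 1 drawn in the darkest colour). Adamts5 (3653 CPM) and Serpine2 (4879 CPM) peak in mesangial-like cells, Timp3 in arterial EC-like cells (5485 CPM) and Plau in dLOH-like cells (493.4 CPM).

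Genes with the most similar class pattern are given as a description over 16 class means that share libraries and depth. For Serpine2 they were Nrgn (r = 0.977), Bgn (0.971), which encodes the matrix proteoglycan biglycan, and Osmr (0.967). For Adamts5 they were Lhfp (0.972), Gm14005 (0.956) and Pard6g (0.944), and for Mmp2 Art3 (0.918), Gja5 (0.901) and Col23a1 (0.896). Timp1 was closest to the elastin gene Eln (0.956), Grrp1 (0.954) and Hey1 (0.949), and Timp3 after Syn3 to Tm7sf3 (0.937) and B4galt1 (0.92). The closest genes were Emsy, Camkk1 and Prdm11 for Mmp14 (0.913 to 0.914), Ik, Recql and Surf6 for Timp2 (0.946 to 0.957), and Ing3, Api5 and Stag1 for Adamts1 (0.94 to 0.963). Plau had no closer match than Ptpn13 (0.809), Arrdc3 (0.806) and Cox19 (0.805).

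The genotype comparison asked whether these genes differed between DN and control cells of a class at 6 and at 12 weeks of age. In mesangial-like cells, Mmp2, Serpine2 and Timp3 rose in DN mice. Averaged over both ages, Mmp2 was higher by 0.88 ± 0.13 (log2 fold change ± SE), Serpine2 by 0.74 ± 0.17 and Timp3 by 0.68 ± 0.15. The levels of Timp2, Adamts1 and Adamts5 in the same cells did not pass the test. Timp1 was too low to be tested, so 3 of 8 tested genes passed, where 4.88% of all 9299 genes tested in this class did (edgeR's quasi-likelihood test, Benjamini-Hochberg adjusted p under 0.05). At 12 weeks alone 2 of 8 passed, against 3.25% of all genes, and at 6 weeks 0 of 8, against 0.247%. With the replicate number as a block (libraries of the same sex, age and number taken as pairs), 3 of 8 passed at 6 weeks, 5 of 8 at 12 weeks and 4 of 8 for the average, against 4.04%, 12.5% and 14.6% of all genes. At 6 weeks without the block, Mmp2, Serpine2 and Timp3 had an unadjusted p under 0.05, and DESeq2 called Mmp2 and Timp3.

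Mmp2 in control libraries at 6 weeks was at 169, 174, 181 and 218 CPM, in the order female replicates 1 and 2, male replicates 1 and 2. In the same order it was at 327, 246, 271 and 329 CPM in DN libraries. At 12 weeks it was at 178, 165, 100.4 and 141 CPM in control and at 341, 303, 236 and 285 CPM in DN libraries. Every DN library lay above every control library at both ages, in the shallow and in the deep batch. The log2 fold change was 1.07 ± 0.18 at 12 weeks (edgeR adjusted p = 0.00204) and 0.69 ± 0.18 at 6 weeks (adjusted p = 0.137, and 0.00159 with the replicate block). The mean over both ages had an adjusted p of 0.000347.

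Mmp14 overlapped between genotypes at 6 weeks, with 148, 133.5, 177 and 130.5 CPM in control and 135, 138, 164 and 165 CPM in DN libraries. At 12 weeks the control libraries were at 63.0, 122, 125 and 113 CPM and the DN libraries at 129.7, 164, 176 and 182.5 CPM, with no overlap. The difference at 12 weeks, 0.65 ± 0.17, missed the threshold in edgeR (adjusted p = 0.0508) and passed it with the replicate block (0.000594) and in DESeq2 (0.00139). The change of the genotype difference between ages was 0.59 ± 0.25 and did not pass (adjusted p = 1.0, unadjusted p = 0.029). Adamts5 ranged from 2362 to 4378 CPM in control and from 2462 to 4483 CPM in DN libraries, with a log2 fold change of -0.08 ± 0.13 averaged over both ages. Adamts1 ranged from 196 to 519.6 CPM in control and from 234 to 537 CPM in DN libraries, with a log2 fold change of 0.14 ± 0.19. The 2 ADAMTS proteases thus overlapped almost fully between genotypes.

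Among the inhibitors, Timp3 in mesangial-like cells had a median of 906 CPM in control libraries (549.7 to 1042, n = 8) and 1256 CPM in DN libraries (1019 to 1836, n = 8). DN was higher in 7 of 8 pairs of the same sex, age and replicate number, the exception being female replicate 1 at 6 weeks with 1042 CPM in control and 1019 CPM in DN. The averaged difference had an edgeR adjusted p of 0.00909. The single ages passed with the replicate block (edgeR adjusted p = 0.00471 at 6 weeks and 0.0268 at 12 weeks). They did not pass in the main edgeR fit, which had no block (0.13 and 0.246). Timp2 had a median of 691.5 CPM in control (506 to 741) and 727.5 CPM in DN libraries (529 to 772), a log2 difference of 0.10 ± 0.12 (adjusted p = 0.809).

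Serpine2 in mesangial-like cells at 6 weeks was at 5624, 4381, 2843 and 3527 CPM in control libraries and at 7486, 5345, 4546 and 5389 CPM in DN libraries, in the library order used for Mmp2. At 12 weeks the values were 5079, 3368, 2594 and 2789 CPM in control and 9012, 4474, 5817 and 5791 CPM in DN libraries. The shallow libraries were the highest of each group, and the genotypes overlapped when both batches were pooled. Within the deep batch, control libraries reached 4381 CPM and DN libraries started at 4474 CPM, and within the shallow batch the corresponding values were 5624 and 7486 CPM. DN was higher in 8 of 8 pairs. The averaged difference passed in edgeR (adjusted p = 0.0145), as did that at 12 weeks (0.96 ± 0.24, adjusted p = 0.0371). That at 6 weeks passed with the replicate block (0.53 ± 0.11, edgeR adjusted p = 0.00998) and not in the main edgeR fit. The 12-week call was lost when 1 of 7 libraries was left out, which were both male replicates and female replicate 2 of the 12-week controls, male control replicate 2 at 6 weeks, and female replicate 1 and both male replicates of the 12-week DN group, with adjusted p up to 0.179. Plau in these cells was at 6.75 to 255 CPM in control and at 20.35 to 192.5 CPM in DN libraries. Its 12-week difference was 0.79 ± 0.62 (adjusted p = 0.773) and passed with the replicate block (0.86 ± 0.19, adjusted p = 0.00503).

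**Figure D2:**
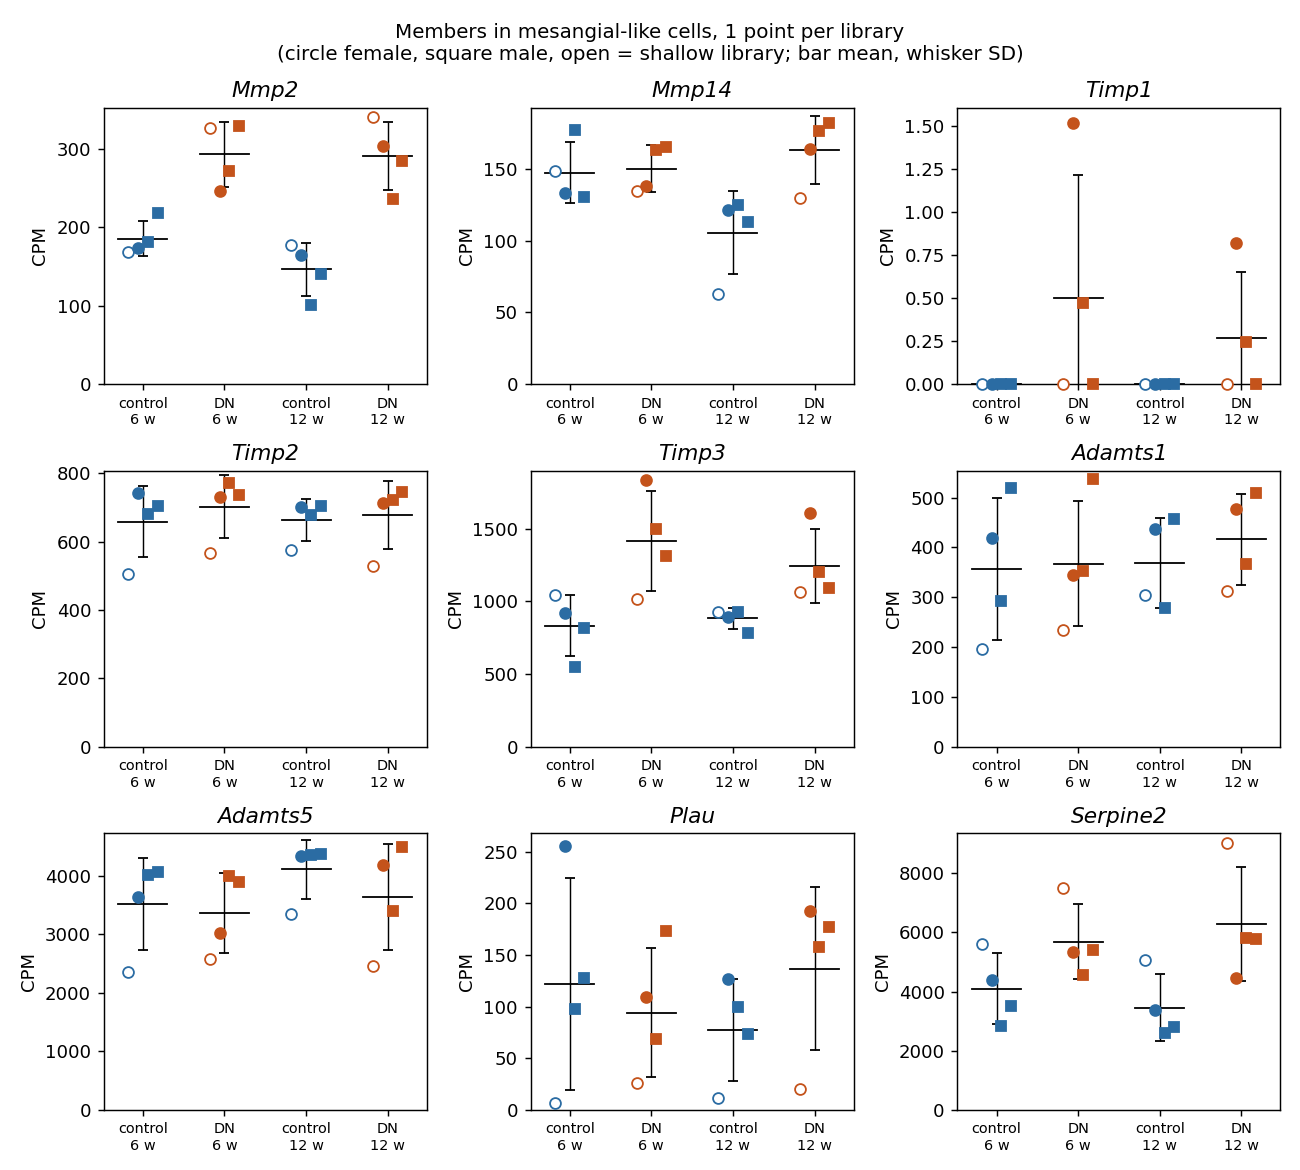
Level of each gene in mesangial-like cells in CPM (vertical axes start at 0), 1 point per library by genotype and age in weeks (w); circles are female and squares male mice, open symbols are the shallow libraries, and the bar and whisker are the mean and SD of 4 libraries. Mmp2 lies between 235.6 and 341 CPM in DN and between 100.4 and 218 CPM in control libraries, whereas Adamts5 spans 2362 to 4483 CPM with both genotypes mixed.

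Marker levels in the mesangial-like class moved with genotype as well. The summed level of 10 mesangial markers was 15560 to 20660 CPM in control and 10670 to 12840 CPM in DN libraries, with 9 of the 10 markers lower in the median. The marker Itga8 had a UMI in 96.9% of control and 98.05% of DN cells of the class, and Pdgfrb in 94.2% and 94.4%, at a median of 3971 and 5760 UMIs per cell. The 11 smooth muscle and renin markers summed to 205 to 1955 CPM in control and 786 to 6510 CPM in DN libraries, and 5 of the 11 were higher in the median. Levels of Mmp2, Serpine2 and Timp3 in smooth muscle and renin-like cells (1.4, 571 and 598 CPM) were below those in mesangial-like cells. The 8 fibroblast markers summed to 67.5 to 266 CPM in control and 151 to 279 CPM in DN libraries. Among them Dcn had a median of 17.5 CPM in control (3.37 to 37.0) and 75.3 CPM in DN libraries (19.2 to 96.5), Gas1 22.5 and 26.9 CPM and Pdgfra, the most abundant, 104 and 98.35 CPM, and 3 were at 0 in every library (Scara5, Dpt and Clec3b). The 15 dissociation stress genes summed to 1181 to 1616 CPM in control and 1249 to 3315 CPM in DN libraries. The part of these shifts in the differences was not tested.

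Other genes of the pathway were taken from fixed lists, each counted in mesangial-like cells for DN against control averaged over both ages, where 4.88% of all genes tested in that class were called. Among the other matrix metalloproteinases 2 of 5 tested were higher (Mmp3 and Mmp17) and 1 lower (Mmp16), with a median log2 fold change of 0.50. Both other inhibitors tested, Timp4 and Reck, were higher, as were 2 of 4 other ADAMTS proteases (Adamts9 and Adamts12). Other matrix-cleaving proteases had 6 of 14 higher and 0 lower, the plasminogen system 1 of 6 higher (S100a10, a cell-surface plasminogen receptor subunit), and matrix substrates 6 of 16 higher. The dissociation stress genes had 2 of 14 higher (Fos and Junb). With the replicate block, where 14.6% of all genes were called, 9 of 14 other matrix-cleaving proteases, 3 of 6 plasminogen system genes, 10 of 16 matrix substrates and 7 of 14 dissociation stress genes were higher, with 0 lower in each of these lists. Over all classes, where 0.962% of all tests were called, the matrix substrates had 10 of 178 tests higher and 0 lower. The dissociation stress genes had 8 of 207 and 0, other matrix-cleaving proteases 7 of 130 and 1, and the plasminogen system 5 of 72 and 1. Other ADAMTS proteases had 3 of 36 and 0, other matrix metalloproteinases 2 of 17 and 1, and other inhibitors 2 of 11 and 0. With the block 5.94% of all tests were called. The higher and lower counts, in that order of lists, were then 36/7, 38/10, 17/6, 14/1, 6/4, 2/1 and 2/0. The 9 genes themselves had a median of 0.28 over the 8 tested, beside 0 over all genes of the class.

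The list genes with the smallest adjusted p are named with their levels. Prss23, a secreted serine protease, was at 6.23 ± 3.65 CPM in control and 30.8 ± 8.32 CPM in DN libraries (SD, n = 8 each; log2 fold change 2.22 ± 0.28, edgeR adjusted p = 0.000141). Adamts9 was at 12.0 ± 6.88 and 35.0 ± 13.4 CPM (1.78 ± 0.24, edgeR adjusted p = 0.000191), and Adamts12 at 8.504 ± 7.36 and 26.1 ± 10.6 CPM. Ctsk, the collagen-cutting cathepsin K, was at 49.1 ± 11.5 and 94.9 ± 17.1 CPM, and Ctss, which encodes cathepsin S, at 2.26 ± 1.96 and 14.7 ± 6.55 CPM. S100a10 was at 289.8 ± 54.3 and 590.1 ± 132 CPM (1.06 ± 0.15, edgeR adjusted p = 0.00041). Timp4 was at 1.69 ± 3.48 CPM in control and 11.1 ± 11.2 CPM in DN libraries. These 7 genes passed at edgeR adjusted p values of 0.0017 or less. Among the substrates, the fibronectin gene Fn1 rose from 0.34 ± 0.50 to 11.6 ± 8.42 CPM in mesangial-like cells and from 29.0 ± 17.7 to 117 ± 46.4 CPM in smooth muscle and renin-like cells. In mesangial-like cells it ranged from 0 to 1.095 CPM in control and from 2.544 to 28.86 CPM in DN libraries. The part of RNA from other cells in the low Fn1, Ctss and Timp4 levels of mesangial-like cells was not tested. Nid2, Col3a1 and Col4a2 rose by 1.46, 2.28 and 0.85 on the log2 scale in mesangial-like cells, and Col4a2 by 1.59 in podocyte-like cells. Mep1b, a meprin subunit of the proximal tubule brush border, fell by 2.32 on the log2 scale in PT-like cells, from 7.02 ± 6.61 to 1.53 ± 1.46 CPM.

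Over all classes and genes together, 9 of 90 tests of the 9 genes passed for DN against control averaged over both ages, 8 of them higher and 1 lower in DN, where 0.962% of all tests did. At 12 weeks 3 of 90 passed, against 0.385%, and at 6 weeks 1 of 93, against 0.0764%. With the replicate block the numbers were 26 (5.94% of all tests), 19 (3.39%) and 7 (1.38%). The 6 averaged calls outside mesangial-like cells were those of Serpine2 in glomerular EC-like, mitotic and connecting tubule-like (CNT-like) cells, Adamts5 in mitotic cells, Adamts1 in CNT-like cells and Timp2 in cells like type A intercalated cells (IC-A-like).

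**Figure D3:**
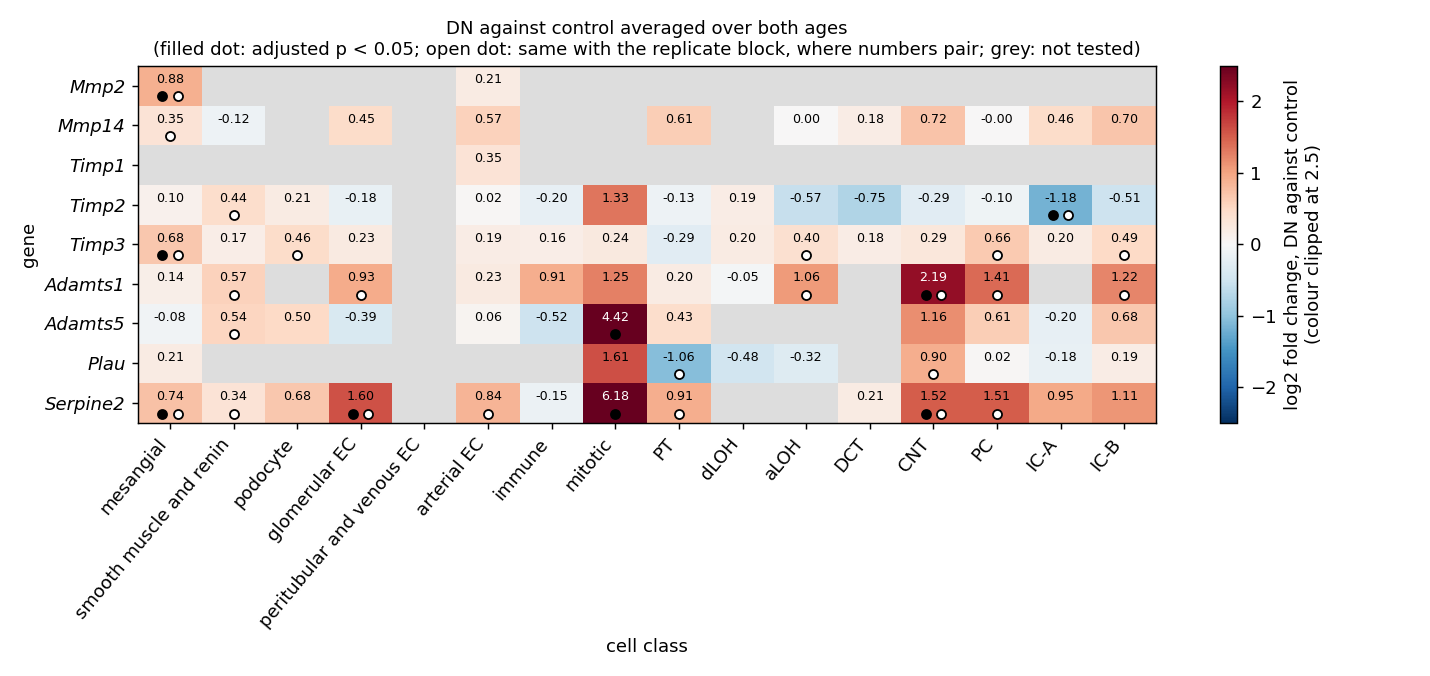
Log2 fold change of DN against control averaged over both ages for each gene (rows) and cell class (columns), red higher and blue lower in DN, with grey where the gene or class was not tested. Filled dots mark an edgeR adjusted p under 0.05 (9 of 90 tests). Open dots mark the same with the replicate block, drawn in 13 classes where each correlation between libraries of the same number was over 0.1. Serpine2 carries the most filled dots (4 classes).

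In glomerular EC-like cells Serpine2 rose in DN mice. Its level had a median of 49.99 CPM in control libraries (26.1 to 70.3, n = 8) and 135 CPM in DN libraries (73.2 to 223, n = 8), with no overlap in either batch. The averaged log2 fold change was 1.60 ± 0.23 (edgeR adjusted p = 0.00595). With the replicate block both ages passed (edgeR adjusted p = 4.54e-06 at 6 weeks and 9.97e-07 at 12 weeks), and in the main edgeR fit neither did (0.247 and 0.098). A Serpine2 UMI was present in 11.5% of 3020 control and 36.45% of 3078 DN cells, at median depths of 3228 and 3820 UMIs, compared with 3.002% and 6.95% of PT-like cells at 7906 and 10084 UMIs.

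Over all cells kept, Serpine2 was at 45.4 to 281.5 CPM in control and at 120.0 to 439 CPM in DN libraries. Its level in glomerular EC-like cells as a percentage of that over all cells of the same library was 42.8% in the median control library (24.98 to 95.4) and 41.1% in the median DN library (34.2 to 127). Adamts5 in glomerular EC-like cells was at 54.95 to 153 CPM in control and 50.3 to 104 CPM in DN libraries. The 10 mesangial markers summed to 12.5 to 96.8 CPM in control and 18.3 to 62.2 CPM in DN libraries of this class. The 8 peritubular and venous endothelial markers were higher in DN for 6 of 8 (1146 to 1546 against 1539 to 2339 CPM summed, 1 marker at 0), and that class held Serpine2 at 344 ± 216 CPM. The part of RNA from mesangial-like or from peritubular and venous cells in the Serpine2 difference was not tested. Adamts1 in glomerular EC-like cells had a median of 155 CPM in control (76.8 to 259) and 321 CPM in DN libraries (138 to 427), higher in DN in 8 of 8 pairs. It passed with the replicate block (0.98 ± 0.17, edgeR adjusted p = 0.00106) and not in the main edgeR fit (adjusted p = 0.246). Dissociation stress genes of this class summed to 2464 to 3886 CPM in control and 2889 to 6210 CPM in DN libraries.

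The mitotic class was small, with 121 control cells and 203 DN cells over all libraries. The usable libraries, with at least 10 cells of the class, were 7 control and 6 DN libraries. Serpine2 in it was at 0 to 32.9 CPM in control libraries (median 0, 4 of 7 at 0) and 153 to 643 CPM in DN libraries (median 441), and Adamts5 at 0 to 45.0 CPM (median 5.56) and 176 to 423 CPM (median 264). Neither gene overlapped between genotypes. The fitted averaged log2 fold changes were 6.18 ± 0.60 (edgeR adjusted p = 0.000401) and 4.42 ± 0.60 (adjusted p = 0.00326), and depend on the prior count where libraries are at 0. With the replicate block, whose numbers did not pair the libraries of this class, the averaged call was lost for Adamts5 (edgeR adjusted p = 0.0572) and kept for Serpine2 (0.0109). Without it, Serpine2 passed at 6 weeks (adjusted p = 0.0131) and at 12 weeks (0.0133), the latter lost without female or male control replicate 2 at 12 weeks (up to 0.12), and with the block neither age passed (edgeR adjusted p = 0.136 and 0.173). Mesangial markers moved with both genes: 9 of 10 were higher in DN, their sum went from 143 to 487 CPM in control to 947 to 1722 CPM in DN libraries, and the marker Itga8 had a UMI in 3 of 121 control and 31 of 203 DN mitotic cells. A change within dividing cells and a larger share of mesangial-like cells among them cannot be told apart here.

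**Figure D4:**
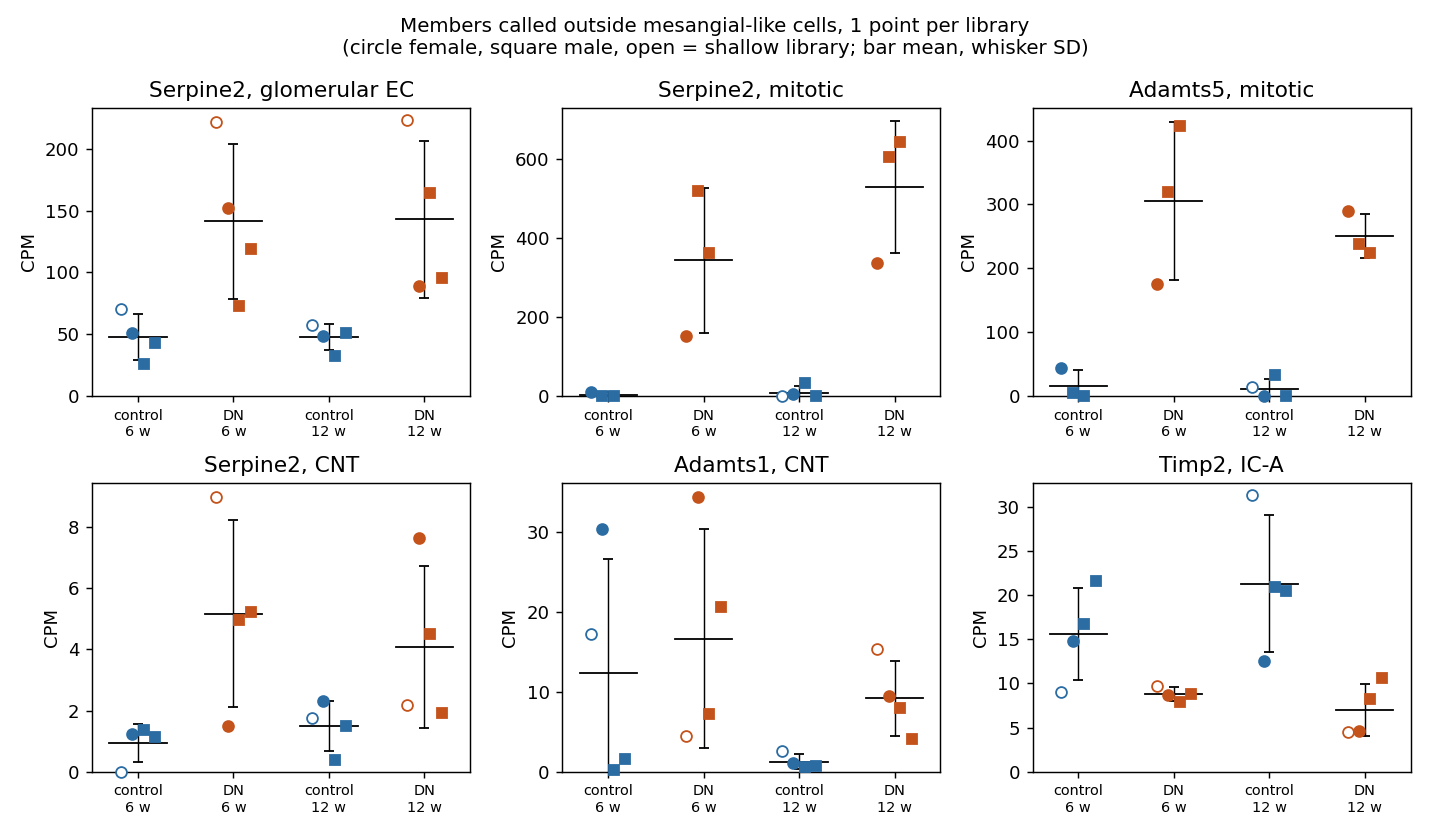
Level in CPM (vertical axes start at 0), 1 point per library by genotype and age in weeks (w), for the 6 gene and class pairs called outside mesangial-like cells; circles are female and squares male mice, open symbols are the shallow libraries, and the bar and whisker are the mean and SD. Serpine2 in glomerular EC-like cells (73.2 to 223 CPM in DN, 26.1 to 70.3 in control) and both mitotic panels separate the genotypes without overlap, and the remaining panels overlap.

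The remaining calls were in IC-A-like and CNT-like cells. Timp2 fell in IC-A-like cells of DN mice, from a median of 18.6 CPM in control libraries (9.08 to 31.3) to 8.41 CPM in DN libraries (4.49 to 10.6). It was lower in 7 of 8 pairs and fell by 1.18 ± 0.20 on the log2 scale (edgeR adjusted p = 0.0053). The control minimum came from a shallow library with 3 UMIs, and within the deep batch the genotypes did not overlap (12.5 to 21.6 against 4.65 to 10.6 CPM). Principal cell markers were also lower in IC-A-like cells of DN mice (1 of 10 higher in the median, sum 517 to 754.5 against 283 to 543 CPM), and PC-like cells held Timp2 at a mean of 167 CPM. The part of these markers was not tested.

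Adamts1 in CNT-like cells had a median of 1.385 CPM in control (0.27 to 30.4) and 8.735 CPM in DN libraries (4.04 to 34.3). At 6 weeks the genotypes overlapped, with 17.2, 30.4, 0.27 and 1.61 CPM in control and 4.49, 34.3, 7.26 and 20.6 CPM in DN libraries, and at 12 weeks they did not, with 0.60 to 2.61 and 4.04 to 15.3 CPM. The averaged difference was 2.19 ± 0.44 (edgeR adjusted p = 0.0166) and was lost without female or male control replicate 2 at 12 weeks, male control replicate 2 at 6 weeks or male DN replicate 1 at 12 weeks (up to 0.0622). Dissociation stress genes in this class summed to 500.1 to 1627 CPM in control and 795 to 1824 CPM in DN libraries, and their part was not tested. As a percentage of its level over all cells of a library, Adamts1 was at 6.85% in the median control and 20.0% in the median DN library in CNT-like cells. In PC-like cells Adamts1 had a median of 6.83 CPM in control and 19.0 CPM in DN libraries. As a percentage of the level over all cells, it was at 30.6% and 36.1% in the median library. It passed with the replicate block (edgeR adjusted p = 0.000181) and not in the main edgeR fit (adjusted p = 0.082).

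Serpine2 in CNT-like cells was at 0 to 2.32 CPM in control and 1.503 to 8.98 CPM in DN libraries, and passed at an adjusted p of 0.0353 (1.52 ± 0.35). The call was lost with 9 of 16 libraries left out in turn (up to 0.143). The medians, 1.289 CPM in control and 4.729 CPM in DN libraries, lay below the mean of 7.3 CPM in PT-like cells. As a percentage of the level over all cells of a library, Serpine2 was at 1.46% in the median control and 1.61% in the median DN library. No difference between CNT-like cells is read from values at this level.

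Other fits called more averaged tests of the 9 genes than the main edgeR fit, and more of all tests as well. With the batch as a term 18 were called (2.32% of all tests), against 9 (0.962%) in the main fit. The further averaged differences given here passed with the replicate block and not in the main edgeR fit. Smooth muscle and renin-like cells of DN mice had more Timp2 (0.44 ± 0.09, adjusted p = 0.0019), Adamts5 (0.61 ± 0.11, adjusted p = 0.000348), Adamts1 (0.62 ± 0.17, adjusted p = 0.0199) and Serpine2 (0.32 ± 0.08, adjusted p = 0.0145). The renin gene Ren1 in this class had a median of 7642 CPM in control (5336 to 27280) and 18230 CPM in DN libraries (10300 to 38950), and 9 of its 11 markers were higher in the median. Dissociation stress genes summed to 2661 to 8275 CPM in control and 2111 to 5558 CPM in DN libraries, and the part of both in these differences was not tested. Serpine2 was also higher in arterial EC-like cells (0.84 ± 0.10, adjusted p = 0.000365), where the genotypes overlapped at 78.9 to 318 and 159 to 426 CPM. Timp3 was higher in podocyte-like (0.33 ± 0.08), PC-like (0.67 ± 0.10), aLOH-like (0.39 ± 0.09) and type B intercalated-like (IC-B-like) cells (0.53 ± 0.13), with adjusted p from 0.000333 to 0.0322. Control and DN ranges overlapped in each: 904 to 2296 and 1679 to 3211 CPM in podocyte-like, 308 to 801 and 330 to 971 in PC-like cells. They were 146 to 317 and 218 to 573 CPM in aLOH-like, 57.6 to 207 and 88.5 to 188 in IC-B-like cells. Over all cells kept, Timp3 was at 554 to 1279 CPM in control and 763 to 1401 CPM in DN libraries. The part of RNA from other cells was not tested. Plau was higher in CNT-like cells (0.98 ± 0.15, adjusted p = 0.000315) and lower in PT-like cells (by -1.01 ± 0.17, adjusted p = 0.00333). Its ranges overlapped widely between genotypes in both classes. They were 0 to 29.0 CPM in control and 0 to 48.1 CPM in DN libraries of CNT-like cells. In PT-like cells they were 1.77 to 61.2 and 3.24 to 39.3 CPM. Adamts1 passed in aLOH-like (1.09 ± 0.25) and IC-B-like cells (1.22 ± 0.30) at low levels that overlapped between genotypes, with medians of 3.164 CPM in control and 10.83 CPM in DN libraries in aLOH-like cells and 1.439 and 3.187 CPM in IC-B-like cells. As a percentage of its level over all cells of a library (17.2 to 58.8 CPM in control and 27.1 to 79.4 CPM in DN libraries), Adamts1 was at 11.7% in the median control and 21.7% in the median DN library in aLOH-like cells, and at 5.398% and 8.24% in IC-B-like cells, with overlapping ranges. Serpine2 also passed in PC-like (1.51 ± 0.28) and PT-like cells (0.90 ± 0.22), with adjusted p over these 4 Adamts1 and Serpine2 tests from 0.00169 to 0.0282, but at low levels, with medians of 1.366 CPM in control and 4.821 CPM in DN libraries in PC-like cells and 4.271 and 7.687 CPM in PT-like cells. As a percentage of the level over all cells of a library, it was at 1.93% in the median control and 1.60% in the median DN library in PC-like cells, and at 5.14% and 3.65% in PT-like cells. No difference within the cells is read from these Adamts1 and Serpine2 values. Without the block the edgeR adjusted p of the differences in this paragraph ranged from 0.051 to 0.789.

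Comparing 12 with 6 weeks, 0 of 90 tests passed in control mice and 0 of 93 in DN mice by edgeR, against 0.0% and 0.00144% of all tests. In edgeR 7 (7.78%) and 3 (3.23%) of these had an unadjusted p under 0.05, as did 2.65% and 2.79% of all tests. DESeq2 also called 0 in both, against 0.0126% and 0.00865% of all tests. By DESeq2 8 (8.89%) and 5 (5.38%) had an unadjusted p under 0.05, as did 2.37% and 2.63% of all tests. The age dependence of the genotype difference gave 0 of 90 in edgeR (0.0% of all tests), in DESeq2 (0.000741%) and with the replicate block (0.0393%). Its unadjusted p was under 0.05 in 3, 2 and 15 of the 90 tests by these fits, as in 1.27%, 1.06% and 4.74% of all tests. For age, Adamts1 in CNT-like cells of control mice ranked first by edgeR, with a log2 fold change of -2.91 ± 0.72 (edgeR adjusted p = 0.403). A p above the threshold does not show that levels were equal at both ages.

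Male against female mice gave 2 of 90 calls, against 1.53% of all tests, and the sexes were unequally spread over the batches. Plau in dLOH-like cells was at 49.2 to 509 CPM in females (median 153, n = 6) and 315 to 848 CPM in males (median 743, n = 8), a log2 difference of 1.97 ± 0.35 (edgeR adjusted p = 0.00266). The shallow female libraries were at 49.2 to 196 CPM and the 2 deep female libraries at 441.5 and 509 CPM. With the batch as a term the difference was 0.53 (adjusted p = 0.796). Plau was low in the shallow libraries of other classes too: 23.7 to 33.4 CPM against 132 to 309 CPM in the deep libraries of aLOH-like cells, and 6.75 to 25.65 against 68.4 to 255 CPM in mesangial-like cells. Adamts1 in PT-like cells was at 2.54 to 19.7 CPM in females and 11.3 to 39.0 CPM in males (0.97 ± 0.25, edgeR adjusted p = 0.025). It had an adjusted p of 0.0447 with the batch as a term and 0.069 in the deep libraries alone, and was lost without male control replicate 2 at 6 weeks or female DN replicate 1 at 12 weeks (up to 0.0526).

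**Figure D5:**
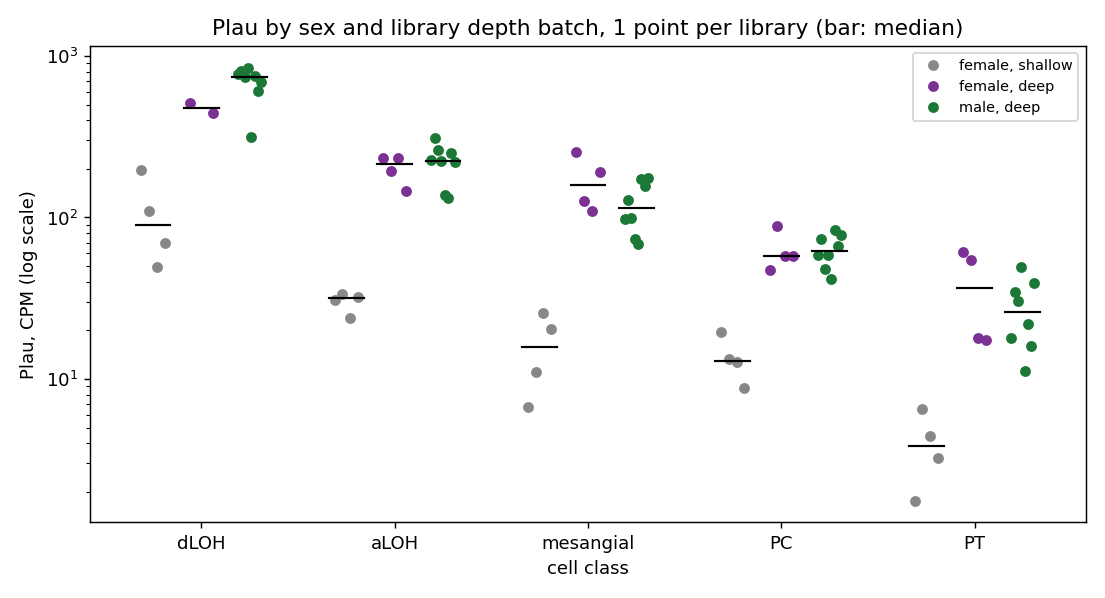
Plau level in CPM on a log axis in 5 cell classes, 1 point per library, split into shallow female, deep female and deep male libraries, with bars at the medians. The shallow libraries lie below the deep ones in each of the 5 classes (23.7 to 33.4 against 132 to 309 CPM in aLOH-like cells), and deep female and male libraries overlap in each.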

How the data were processed

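Gene by cell tables of 16 kidney libraries held raw UMI counts, which the authors made with Cell Ranger 3.0.2 against mm10 and deposited unfiltered by cell type. The study names Chromium 3′ kits of more than 1 version, and which library used which, like the use of strand, is not given in the sources used here. Barcodes with 200 to 7000 genes and at most 50% mitochondrial UMIs were kept (94436). Of these, 8705 (9.22%) were removed as doublets carrying markers of more than 1 lineage, and 953 as non-tubular cells above 20% mitochondrial UMIs. Cells were integrated with a Harmony procedure, clustered (leidenalg 0.10.2, Leiden algorithm, resolution 1.0) and named "X-like" from fixed marker lists. The 9 genes and the pathway lists were left out of both steps, although the study used Adamts5 as a mesangial marker. Thresholds for naming were set after the clusters were seen, and 16 of 47 clusters stayed unnamed. Free RNA was not removed.

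UMIs were summed per library and class (at least 10 cells) and tested with edgeR 4.0.16 in R 4.3.3 (quasi-likelihood test, filterByExpr minimum count 10, TMM scaling). The design held age, sex within age and genotype within age, and p-values were adjusted by Benjamini-Hochberg over all genes of a class. A difference was called at an adjusted p under 0.05. The SE given with an edgeR log2 fold change is its absolute value divided by the square root of the F statistic of the test. DESeq2 1.42.0 was an alternative. Scripts were tested on simulated data. Peritubular and venous EC-like cells had 12 usable libraries and were tested only at 6 weeks and for age in DN mice. Mitotic cells had 13.

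Replicate numbers come from the sample titles. Deviations from group means were correlated between the control and the DN library of 1 class, sex, age and number. Over 57 such values, 1 per class, sex and age, the correlation had a median of 0.578 (-0.165 to 0.885). The same libraries recur in every class, so these values are not independent measures of pairing. With 2 libraries per group, exchanging the 2 numbers of 1 group only turns the sign of a value. The titles do not say that control and DN mice of 1 number belong together. Results with the replicate block therefore depend on an assumed pairing. The 26 female values were 0.251 to 0.885 and the 31 male values -0.165 to 0.706. In females of both genotypes replicate 1 was shallow and replicate 2 deep, so depth batch and pairing cannot be told apart there. Leaving out peritubular and venous EC-like cells, with 1 value only (0.113), every value was over 0.1 in 13 of 16 classes. Immune and mitotic cells held lower values. Each library is 1 mouse. Other alternatives were no low-count filter, RLE scaling, the batch as a term, the 12 deep libraries alone, Scrublet doublets, a resolution of 2.0, at least 25 cells, and leaving out each library.

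The 9 genes, the pathway lists and the tests were chosen with earlier results of these data known. All 9 genes are described. Of the pathway lists, the genes with the smallest adjusted p for DN against control are named (at most 12 with values). Genes behind counts of 5 or fewer are named too, a choice made after their values were seen. Motifs were searched by letters only.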

Additional observations from a re-analysis of the deposited data

Results flagged for a closer look

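Among 135 groups of 4 libraries, 7 held 1 library whose gap to its nearest neighbour was large for the range of the group. By chance about 1 in 20 groups does so, and the number found is near what that rate gives. Timp3 in arterial EC-like cells was at 10070 CPM in female DN replicate 2 at 6 weeks (5614 to 5791 CPM in the other libraries of that genotype and age), and at 6922 CPM in male DN replicate 2 at 12 weeks (others 4016 to 4511). In mesangial-like cells, Adamts5 was at 3351 CPM in female control replicate 1 at 12 weeks (others 4335 to 4378) and Timp2 at 529.1 CPM in female DN replicate 1 at 12 weeks (others 712.8 to 745.3). Both of these libraries belong to the shallow batch. Adamts1 in aLOH-like cells was at 6.827 CPM in female control replicate 2 at 12 weeks (others 1.759 to 2.493). Serpine2 in mitotic cells was at 32.89 CPM in male control replicate 1 at 12 weeks (others 0 to 5.482), from 5 UMIs. Serpine2 in CNT-like cells was at 0.0 CPM in female control replicate 1 at 6 weeks (others 1.15 to 1.35).

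Timp1, near its detection limit in the named classes, was higher in the cells left unnamed of 2 libraries. It was at 41.59 CPM in female control replicate 1 at 6 weeks, where 21 UMIs came from 1 cell, and at 10.5 CPM in male DN replicate 2 at 12 weeks, where 52 UMIs came from 3 cells, 35 of them from 1 cell. In their unnamed cells the other control libraries had 0 to 0.6645 CPM and the other DN libraries 0 to 1.028 CPM.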

How the results depend on the processing

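The number of the 9 genes' tests called depended on the fit. The share of all tests called is given in parentheses, and it moved as well. At 6 weeks DN against control gave 1 call (0.0764%), and 5 with DESeq2 (0.269%), 11 without the low-count filter (0.529%), 7 with the replicate block (1.38%), 4 with the batch as a term (0.288%), 3 in the 12 deep libraries (0.164%) and 0 with at least 25 cells (0.0773%). At 12 weeks the 3 calls (0.385%) became 9 with DESeq2 (0.81%), 19 without the filter (0.993%), 19 with the replicate block (3.39%), 9 with the batch term (1.06%) and 6 in the deep libraries (0.631%). Averaged over both ages the 9 calls (0.962%) became 24 without the filter (1.61%), 26 with the replicate block (5.94%), 18 with the batch term (2.32%) and 14 in the deep libraries (1.71%). Age gave 2 calls in control (0.24%) and 3 in DN mice (0.185%) without the filter. The 2 sex calls (1.53%) became 6 with DESeq2 (3.26%), 16 without the filter (2.71%), 1 with the batch term (2.84%), 0 in the deep libraries (2.82%) and 1 with at least 25 cells (1.35%). RLE scaling, Scrublet and the resolution of 2.0 left each of the 7 counts within 1.5 times. Leaving out 1 library gave 0 to 2, 1 to 6 and 5 to 10 genotype calls at 6 weeks, at 12 weeks and averaged, and 0 to 4 sex calls. The share of all tests called is not given for these refits. These counts therefore do not show whether the 9 genes moved apart from all genes. The cause of these shifts was not tested.

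Leaving out 1 library turned the sign of uncalled differences in mesangial-like cells. At 6 weeks Mmp14 ranged from -0.05 to 0.14, Adamts1 from -0.12 to 0.33, Adamts5 from -0.13 to 0.10 and Plau from -0.84 to 0.64 on the log2 scale, and averaged over both ages Plau ranged from -0.03 to 0.72. Of 613 log2 differences refitted with other settings, 497 kept direction and call, 107 gained a call and 9 lost one, and none reversed. In mitotic cells, where replicate numbers did not pair the libraries, the averaged Adamts5 difference had an edgeR adjusted p of 0.0572 with the replicate block. Age and sex contrasts cannot be fitted with the replicate block, since each pair shares both. Low levels are limited by depth: shallow libraries had 1 to 5 UMIs of some genes in a class.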
